A study of Rattus norvegicus with 9 samples.

Results

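The circadian clock genes described here are the 10 genes Per1, Per2, Per3, Cry1, Nr1d1, Nr1d2, Bmal1, Dbp, Nfil3 and Bhlhe40, and their levels were read in cerebral cortex from Sprague-Dawley rats. They were found by the gene symbol that the platform annotation gives each array probe. Of the 10 genes, 9 had 1 named probe each, out of 10412 named genes on the array, and no named probe matched Nr1d2. All 9 animals, 3 females and 6 males aged 60 days, were non-irradiated, untreated controls of a study of cortical dysplasia in offspring of irradiated rats; the irradiated animals were not analysed here. Total RNA of each animal's cortex was hybridised to 1 Illumina rat bead array. The animals had been kept under a light and dark cycle, and the sources used here give no hour of tissue collection. Each sample title carries 1 of 3 numbers that the labels leave unexplained; they are called A, B and C here, in rising order, and each covers 1 female and 2 males.

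The mammalian clock is a transcriptional feedback loop that runs in most cells, cortical neurons and glia included, and is set to the day by the suprachiasmatic nucleus of the hypothalamus. CLOCK and BMAL1 bind E-boxes and activate Per, Cry, Nr1d1, Nr1d2, Dbp and Bhlhe40; PER and CRY proteins then repress CLOCK and BMAL1. In another loop the nuclear receptor REV-ERB alpha, encoded by Nr1d1, represses Bmal1 and Nfil3 through RORE sites, and in a further one DBP activates and NFIL3 represses genes with D-boxes. In rodents Per1 is also induced by glucocorticoids and neuronal activity, and Bhlhe40 by many stimuli.

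The sites of these loops were looked for in the 250 bases before the annotated start of each gene (RefSeq, build GRCr8, printed 5′ to 3′ on the gene's strand). Windows of 9 of the 10 genes were matched, Nr1d1 with 2. The 5 windows of the genes with a match are shown, because they hold letters that match elements of these loops. Binding to these copies was not tested. Capitals mark the letters that matched. The Per2 window (chr9:99496994-99497243, minus strand) holds a D-box, 192 to 185 bases before the start, and an E-box variant (E′-box), 62 to 57 bases before it. Of the Nr1d1 windows, the first (chr10:84231813-84232062, minus strand) holds an E′-box on the opposite strand, and the second (chr10:84229455-84229704, minus strand) an E-box. The Bhlhe40 window (chr4:143174200-143174449, plus strand) holds an E-box, and the Bmal1 window (chr1:176766078-176766327, plus strand) a RORE core, 16 to 10 bases before the start.
Per2: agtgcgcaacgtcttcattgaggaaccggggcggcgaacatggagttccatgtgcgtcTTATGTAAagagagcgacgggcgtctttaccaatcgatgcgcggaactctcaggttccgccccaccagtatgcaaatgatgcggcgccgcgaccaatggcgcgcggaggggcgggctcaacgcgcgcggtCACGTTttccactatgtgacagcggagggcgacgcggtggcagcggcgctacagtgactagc
Nr1d1, first start: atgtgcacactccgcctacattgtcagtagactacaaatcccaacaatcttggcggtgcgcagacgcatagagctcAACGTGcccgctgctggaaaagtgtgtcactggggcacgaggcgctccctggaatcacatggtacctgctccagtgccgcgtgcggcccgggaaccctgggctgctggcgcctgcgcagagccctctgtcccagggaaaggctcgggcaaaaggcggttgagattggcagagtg
Nr1d1, second start: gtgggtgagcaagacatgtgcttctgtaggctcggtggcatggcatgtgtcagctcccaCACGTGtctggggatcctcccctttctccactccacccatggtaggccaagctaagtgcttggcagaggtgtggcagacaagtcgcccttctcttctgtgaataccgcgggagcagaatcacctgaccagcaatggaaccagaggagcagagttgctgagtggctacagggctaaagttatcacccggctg
Bhlhe40: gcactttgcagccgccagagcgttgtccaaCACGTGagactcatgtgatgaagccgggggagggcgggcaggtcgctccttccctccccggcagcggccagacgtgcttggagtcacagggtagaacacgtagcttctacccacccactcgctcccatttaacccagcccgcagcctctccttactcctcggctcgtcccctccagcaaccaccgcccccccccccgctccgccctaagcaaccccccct
Bmal1: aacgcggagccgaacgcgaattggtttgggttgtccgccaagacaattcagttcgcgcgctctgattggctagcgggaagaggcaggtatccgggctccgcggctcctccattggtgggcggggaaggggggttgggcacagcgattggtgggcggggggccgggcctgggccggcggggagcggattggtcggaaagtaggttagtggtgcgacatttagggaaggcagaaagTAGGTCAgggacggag
The motifs, searched on both strands, were CACGTG (E-box, in 5.59% of all 33469 windows of this length), CACGTT (E′-box, 4.07%), TTANGTAA (D-box, 2.04%), TAGGTCA or TGGGTCA (RORE core, 5.62%), TGACGTCA (CRE, 1.59%) and GNACA followed after 3 bases by TGTNC (glucocorticoid response element, 0.373%). No 2 of the marked matches overlapped. The windows of Per1, Per3, Nr1d2, Dbp and Nfil3 held none of these letters, which says nothing of sites elsewhere.

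All values below are log2 probe intensities after background correction and quantile normalization, and levels of different probes are not compared with each other. Probe signal set how much each gene could show. Per2 was bright, with raw intensities of 540.3 to 884.3, and Per1 lay between 153.8 and 430.3. The 95th percentile of 21 olfactory receptor probes, a stand-in for background chosen after the data were seen, was 52.9 to 66.0 over the arrays. Per1, Per2, Cry1, Nr1d1, Bmal1, Nfil3 and Bhlhe40 were above it on all 9 arrays, Dbp on 8, at raw intensities of 60.6 to 75.9, and Per3 on 0, at 42.9 to 55.5. Values of Per3 therefore cannot be told from background here, and those of Dbp lie close to it. All 9 probes passed the filter on low values.

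Mean array intensity was 183.6 to 185.4 on the 3 dimmest arrays (male 2, male 4 and female 2) and 212.2 to 238.8 on the other 6. Of 8 tested markers of cortical neurons, 8 were above the olfactory stand-in on all arrays. Scores of other tissues, the mean log2 deviation of a marker list from the median animal, singled out male 3 for choroid plexus (1.02, against -0.13 to 0.38 in the others; 2 of 13 markers above background on all arrays) and male 5 for myelin (-1.01, against -0.15 to 0.26). Female 2, the highest animal for Per2 and Cry1, had the lowest blood (-0.72) and meninges (-0.44) scores. It also had the highest hypothalamus score (0.20, against -0.05 to 0.05 in the others). Of the 6 hypothalamus markers, 1 was above the olfactory stand-in on all arrays, Vip, and it was highest in female 1. Trh was highest in female 2, at 7.05 against a mean of 6.22 over the 9 animals. Avp, Hcrt, Pmch and Six6 were highest in other animals. The part of these scores in the values of female 2 was not tested. In these whole-tissue samples, fewer cells of a type and less RNA per cell cannot be told apart.

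Per1 had the widest range over the 9 animals, and male 1 set it. Its values were 8.21, 7.33 and 8.09 in female 1, male 1 and male 2 (title number A), 8.66, 8.37 and 8.25 in male 3, male 4 and female 2 (B), and 8.43, 8.55 and 8.28 in male 5, female 3 and male 6 (C). Male 1 was the low animal and male 3 the high one, 2.51-fold apart; without male 1 the range was 1.49-fold. Nr1d1, in the same order of animals, read 7.16, 7.04 and 7.19, then 7.73, 7.26 and 7.44, then 7.56, 7.72 and 7.47. All 3 animals of number A were below all others for Nr1d1, and male 1 and male 3 were again the ends, 1.61-fold apart. The share of all tested probes with a title number wholly below the others was not computed.

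Per2, a partner of PER1 in the repressor complex, read 9.75, 9.02 and 9.67, then 9.67, 9.92 and 9.96, then 9.40, 9.42 and 9.34. Male 1 was lowest and female 2 highest, and the animals of number C lay between male 1 and the rest. Bhlhe40, a repressor that competes for E-boxes, read 8.85, 8.02 and 8.59, then 8.64, 8.57 and 8.83, then 8.20, 8.78 and 8.22. Males 1, 5 and 6 formed a low set, and the 3 females were the highest animals. Cry1, the other repressor of CLOCK and BMAL1, read 8.39, 8.17 and 8.40, then 8.07, 8.45 and 8.50, then 7.78, 8.03 and 8.07. It was higher on the 3 dimmest arrays (8.40 to 8.50) than on the other 6 (7.78 to 8.39), without overlap. The share of all tested probes that split in this way was not computed. The part of array brightness in the Cry1 values was not tested.

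Nfil3, the D-box repressor, read 7.88, 7.53 and 7.53, then 7.72, 7.48 and 7.62, then 7.79, 8.35 and 7.88. Female 3 stood highest, and male 4 lowest. Dbp, the D-box activator, read 6.24, 6.40 and 6.53, then 6.44, 6.65 and 6.46, then 6.30, 6.36 and 6.31. It too was higher on the 3 dimmest arrays (6.46 to 6.65) than on the other 6 (6.24 to 6.44). Here again the share of all probes was not computed, and the part of brightness was not tested. Bmal1, the activator of the loop, read 7.06, 6.91 and 6.75, then 6.73, 6.84 and 6.86, then 6.70, 7.01 and 6.89. Females 1 and 3 were its highest animals. Per3 ranged from 5.96 in female 2 to 6.21 in male 2. The plot of clock gene values by animal shows all of these.

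**Figure D1:**
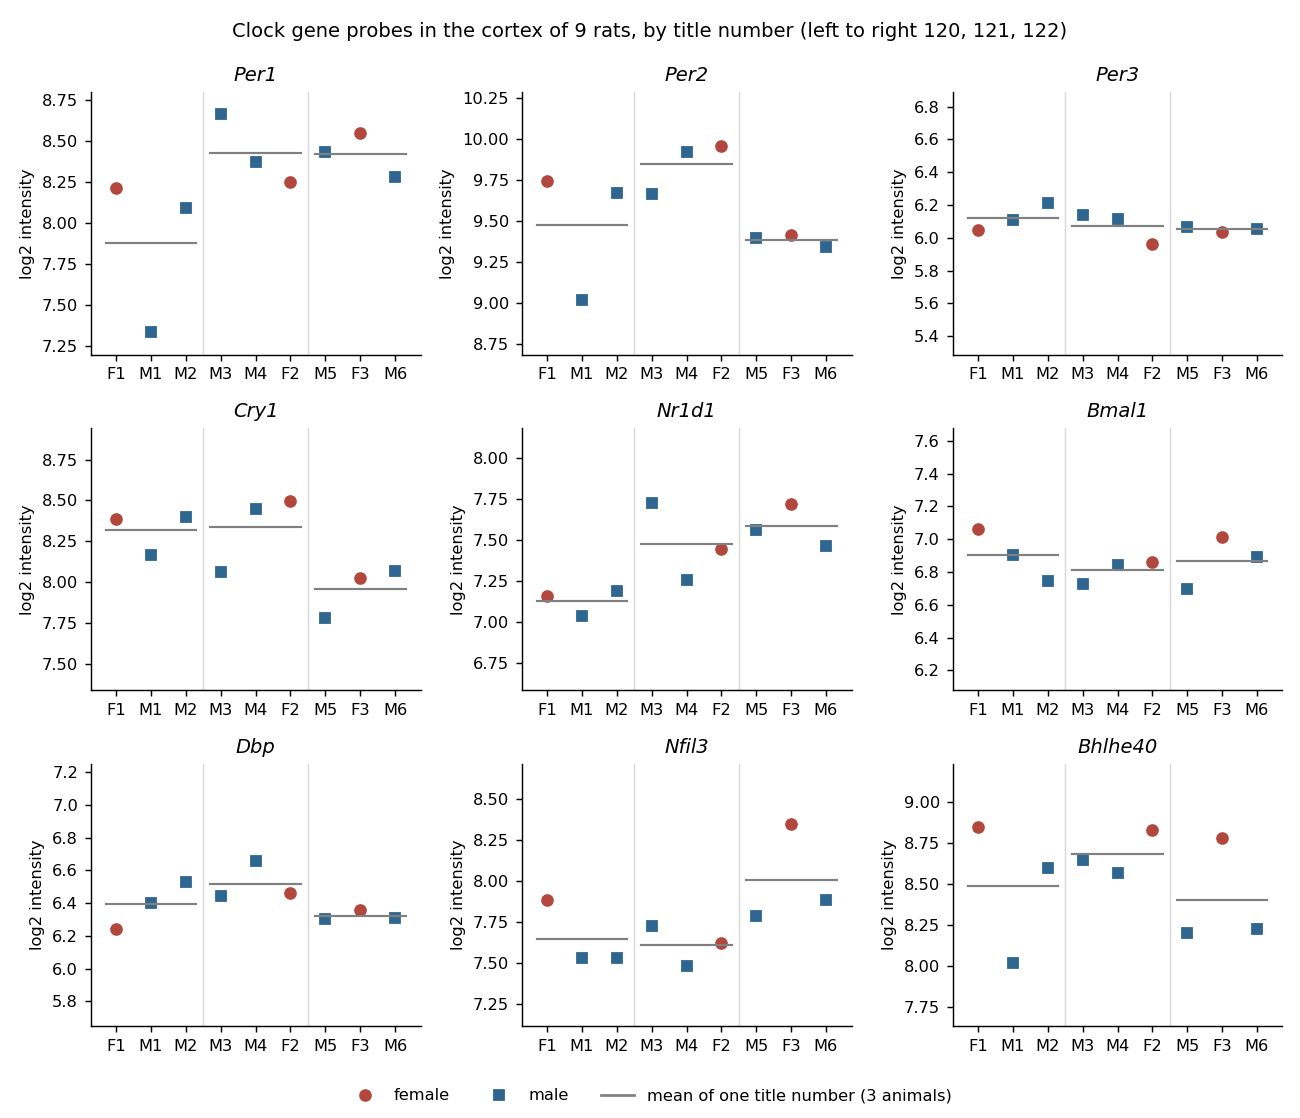
Log2 intensity (vertical axes, the same span in every panel) of the 9 clock gene probes in each animal (horizontal axis, F for females and M for males), ordered by title number (A, B and C from left to right, shown as the numbers themselves). Grey lines are means of the 3 animals of a number; Nr1d1 is lowest in number A, and Per1 and Per2 are lowest in male 1.

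Spread between animals was wide for most members. The SD over the 9 animals was 0.38 for Per1, 0.30 for Per2 and Bhlhe40, 0.27 for Nfil3, 0.25 for Nr1d1 and 0.24 for Cry1, and 0.13 for Bmal1 and Dbp and 0.07 for Per3. Of the 9 members, 8 exceeded the median SD of all 18531 tested probes (0.09), and the SD of Per1 was above that of 99.1% of them. Single animals set 2 of these values: without male 1 the SD of Per1 was 0.19, above that of 86.1% of probes and the 6th highest of the 9 members, and without female 3 that of Nfil3 was 0.16. The other members' SDs moved by less than 1.5 times when any 1 animal was left out. The members' median SD was 0.25. Per3 and Dbp, among the 3 least variable members, were also the dimmest probes. The median raw intensity of all 22517 probes was 47.6 to 54.0 over the arrays, so many of the probes compared were dim. The members' SDs were not compared with those of probes of like intensity.

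Covariation was measured as the correlation of 2 members over the 9 animals, with a two-sided exact permutation test over all orders of the animals. Per1 and Nr1d1 varied together: Pearson's r was 0.81 (exact permutation p = 0.00053) and Spearman's rho 0.93 (exact p = 0.00075). Among all tested probes, Nr1d1 had the 56th highest r with Per1, and Per1 the 84th highest with Nr1d1; adjusted over all probes the pair did not pass (Benjamini-Hochberg adjusted exact permutation p = 1.00 for Per1 as the reference and 0.80 for Nr1d1). Without the 2 animals farthest from the median of Per1, r was 0.81 (exact p = 0.027). Over the 6 males alone it was 0.85 (exact p = 0.014), and without the 3 dimmest arrays 0.88 (exact p = 0.0014). On residuals from the title number means, an alternative chosen after the data were seen, r was 0.60 (permutation within numbers, p = 0.042). Male 3, highest for both genes, also had the highest choroid plexus score; without it r was 0.77 (exact p = 0.013).

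Per2 and Bhlhe40 gave the next strongest pair, with r of 0.78 (exact permutation p = 0.014) and rho of 0.72 (exact p = 0.037). The relation rests on the low animals: without the 2 animals farthest from the median of Per2, r was 0.46 (exact p = 0.31), and without male 1 it was 0.62 (exact p = 0.11). Within the 6 males it was 0.91 (exact p = 0.022). The 3 females had high Bhlhe40 at any Per2 level, between 8.78 and 8.85. Adjusted over all probes the pair did not pass (adjusted exact permutation p = 0.62 and 0.95).

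**Figure D2:**
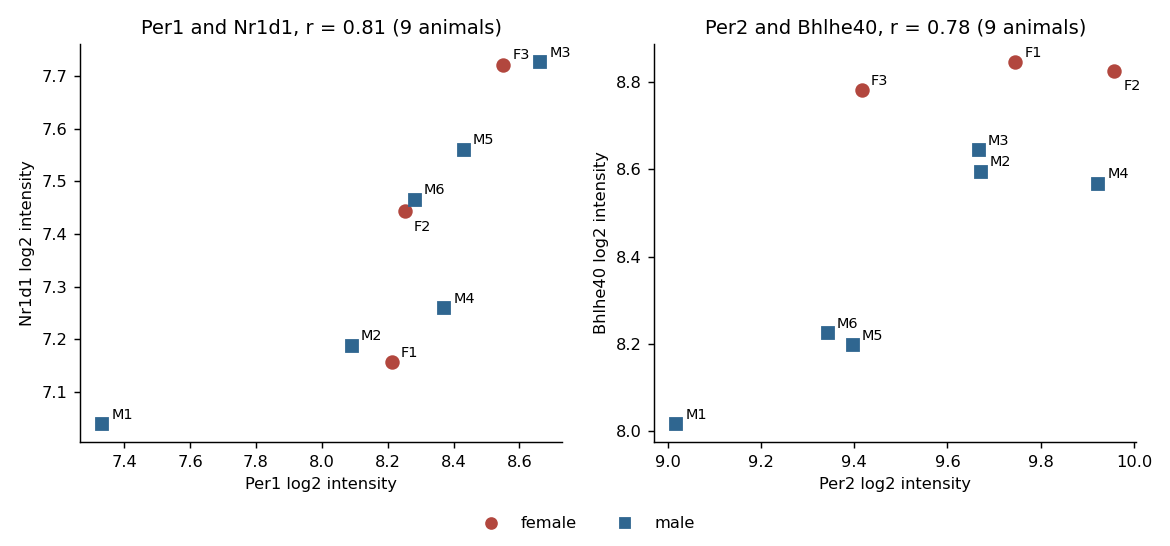
Nr1d1 against Per1 (left) and Bhlhe40 against Per2 (right), each axis in log2 intensity, with 1 point per animal (F, females; M, males). Male 1 is the lowest animal for all 4 genes, and r over the other 8 animals is 0.86 for Per1 with Nr1d1 and 0.62 for Per2 with Bhlhe40.

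The other pairs were weaker. In all, 36 pairs were computed, and 2 were under an unadjusted exact permutation p of 0.05, a share near the background: over the 9 members as references, 7.67% of correlations with any tested probe were under that p. This background differed by member. It was highest, at 16.4% of probes for Cry1 and 15.0% for Dbp, the members without overlap between dim and bright arrays. It was 7.90% for Per2, 7.29% for Nfil3, 6.14% for Nr1d1, 5.29% for Bmal1, 4.05% for Per1, 3.86% for Bhlhe40 and 3.15% for Per3. After adjustment over all probes, 0 pairs passed, as did 0% of the correlations of members with any probe. Of the 36 pairs, 20 had a positive r, and the median r was 0.04.

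Pairs that the loops join directly were among those that did not pass. Nr1d1 and its target Bmal1 had an r of -0.23 (exact permutation p = 0.54), and the sign turned without normalization between arrays (0.16) and without the 2 animals farthest from the median of Nr1d1 (0.20). Nr1d1 and Nfil3, also its target, had an r of 0.60 (exact p = 0.075), and rho was 0.42 (exact p = 0.27). Bmal1 and Dbp gave -0.39 (exact p = 0.30). Dbp and Nfil3, which act on the same D-boxes in opposite ways, had an r of -0.61 (exact p = 0.081) and a rho of -0.83 (exact p = 0.0083); without the 3 dimmest arrays r was -0.25 (exact p = 0.68), and without female 3 it was -0.87 (exact p = 0.0053). Per1 and Per2 gave 0.52 (exact p = 0.15), and their rho was 0.02 (exact p = 0.98). Cry1 and Nr1d1 gave -0.57 (exact p = 0.11), and Per2 and Cry1 0.67 (exact p = 0.051).

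**Figure D3:**
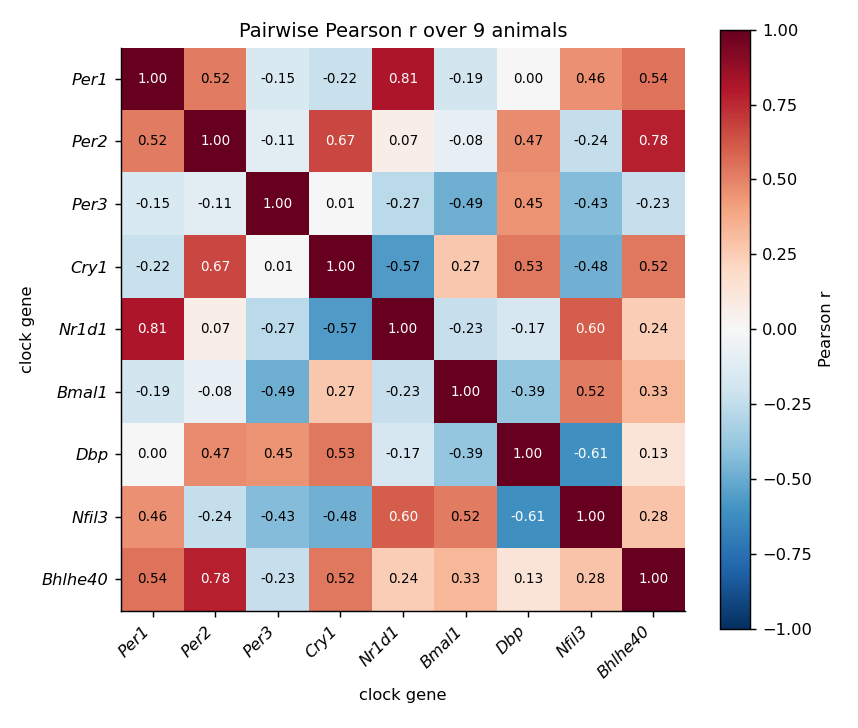
Pearson's r over the 9 animals for each pair of clock genes (rows and columns in the same order, colour scale from -1 to 1). The highest off-diagonal values are 0.81 for Per1 with Nr1d1 and 0.78 for Per2 with Bhlhe40, and the lowest is -0.61 for Dbp with Nfil3.

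Across title numbers, no clock gene passed after adjustment. Of the 9 members, 5 were under an unadjusted p of 0.05 across the 3 numbers with limma's F test (sex as a covariate), against 9.56% of all tested probes; 0 passed at an adjusted p of 0.05, against 0% of all. Nr1d1 averaged 7.13 ± 0.08 (SD, n = 3) for number A, 7.48 ± 0.24 for B and 7.58 ± 0.13 for C (limma's unadjusted p = 0.010, adjusted p = 0.43). Nfil3 averaged 7.65 ± 0.20, 7.61 ± 0.12 and 8.0 ± 0.30 (unadjusted p = 0.0095, adjusted p = 0.43), highest for C. Cry1 was lowest for that number, at 8.32 ± 0.13, 8.34 ± 0.24 and 7.96 ± 0.15 (unadjusted p = 0.019, adjusted p = 0.46).

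Per2 averaged 9.48 ± 0.40, 9.85 ± 0.16 and 9.39 ± 0.04 (limma's unadjusted p = 0.039, adjusted p = 0.50). Per1 averaged 7.88 ± 0.48, 8.43 ± 0.21 and 8.42 ± 0.13 (unadjusted p = 0.046, adjusted p = 0.52). Dbp, Bhlhe40, Per3 and Bmal1 did not reach an unadjusted p of 0.05 (0.10, 0.18, 0.46 and 0.50). The count of 5 was 1 without female 3, when 1534 of the 18531 tested probes were under that p, against 1772 with all animals. It was 2 without male 5 (1506 probes) and 3 without male 4 (1304) or male 6 (1344). It was 3 without normalization between arrays (1120 probes) and 2 with values under 64 raised to 64 (915). The 3 dimmest arrays belong to numbers A and B, so brightness is unequally spread over the numbers, and its part was not tested.

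Between the sexes, most members averaged lower in males, and none passed the adjusted test. The log2 difference, male minus female, was negative for 7 of 9 members, with a median of -0.15; over all tested probes 50.3% were lower in males, with a median of -0.0004. With limma, 0 of 9 members passed at an adjusted p of 0.05, against 0% of the probes tested (each member's adjusted p was 1.00), and 2 were under an unadjusted p of 0.05, against 2.37% of all. Both were lower in males, which 1.18% of all tested probes were at that p. They were Bhlhe40 and Bmal1, and the members and this direction were chosen with earlier results of these data known.

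The averages of several cell type marker lists also differed in direction between the sexes. Values were lower in males for 7 of 8 cortical neuron markers (median difference -0.08) and 10 of 11 myelin markers (-0.14). They were lower in 0 of 11 markers of meninges (median difference 0.24), 0 of 7 of endothelium (0.11), 0 of 4 of blood (0.46), 1 of 9 of microglia (0.12) and 2 of 13 of choroid plexus (0.13). Astrocyte (4 of 8 lower, median 0.05), hippocampus (4 of 6, -0.03) and hypothalamus (3 of 6, -0.003) markers were mixed. Markers of a list were read in the same 9 animals, so these counts are not of independent signs. Several lists hold dim probes. Above the olfactory stand-in on all arrays were 6 of 11 markers of meninges, 6 of 7 of endothelium and 3 of 4 of blood. So were 6 of 9 of microglia, 2 of 13 of choroid plexus and 2 of 6 of hippocampus. The endothelial score lay between -0.15 and -0.07 in females and between -0.04 and 0.14 in males. The hypothalamus score, at 0.022 to 0.196 in females and -0.052 to 0.016 in males, did not overlap either. The neuronal score, at -0.01 to 0.10 and -0.11 to 0.02, overlapped. No marker passed limma's adjusted test, and the part of cell makeup in the clock gene differences was not tested.

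The mean of Bhlhe40 was 8.82 ± 0.03 for females (SD, n = 3) and 8.37 ± 0.26 for males (SD, n = 6). The difference was -0.44 ± 0.13 (SE; limma's unadjusted p = 0.0076, adjusted p = 1.00). All 3 females, at 8.78 to 8.85, lay above all 6 males, at 8.02 to 8.64; females all above males was seen for 0.831% of tested probes. Bmal1 averaged 6.98 ± 0.11 and 6.80 ± 0.09, a difference of -0.18 ± 0.07 (limma's unadjusted p = 0.023, adjusted p = 1.00), and female 2, at 6.86, lay inside the male range of 6.70 to 6.91. Among the 6 brighter arrays Bmal1 was lower where the array was brighter (r = -0.86 with mean array intensity, exact permutation p = 0.013). The r was computed for all 9 members, and this was the smallest p. Cry1 came next (r = -0.69, exact permutation p = 0.16). The relation did not extend to the 3 dimmest arrays, where Bmal1 was 6.75 to 6.86, inside the range of the 6 brighter ones (6.70 to 7.06). The 2 females among the brighter arrays (212.2 and 213.4) had lower mean intensities than the 4 males (215.1 to 238.8). The part of brightness in the difference was not tested. Nfil3 averaged 7.95 ± 0.37 and 7.65 ± 0.17 (difference -0.30 ± 0.15), and without female 3 the difference was -0.10.

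Of the remaining members, all but Per3 differed by little beside their spread. Per2 differed by -0.20 ± 0.18 (SE), Cry1 by -0.15 ± 0.15, Per1 by -0.14 ± 0.24 and Nr1d1 by -0.07 ± 0.16. The sign turned for Per1 without male 1 (0.03), and for Nr1d1 without female 3 (0.07) or without the 3 dimmest arrays (0.0087). Dbp differed by 0.09 ± 0.08. Per3 differed by 0.10 ± 0.05, with no overlap of the sexes (females all below males was seen for 0.669% of tested probes), but at an intensity that was not above the olfactory stand-in on any array.

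**Figure D4:**
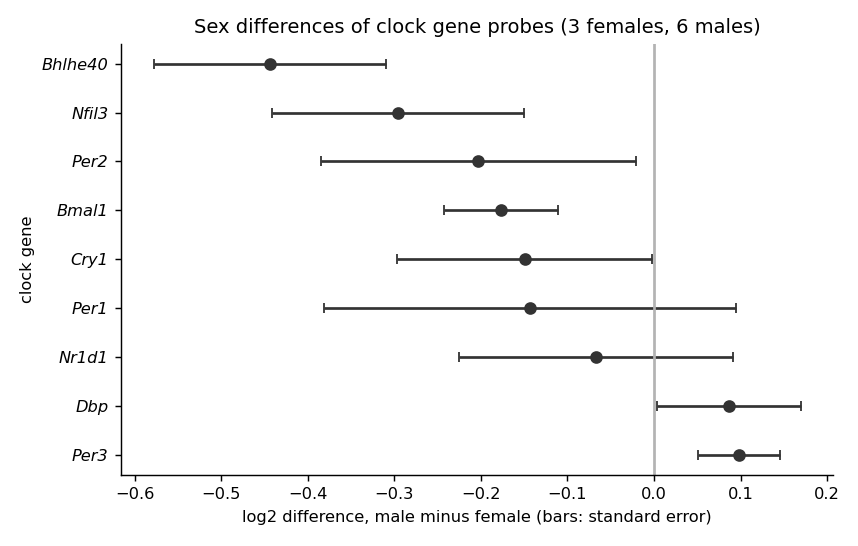
Log2 difference, male minus female, of each clock gene probe (points) with its standard error from limma (bars), for 3 females and 6 males. Bhlhe40 lies farthest from 0, at -0.44, and the difference of 7 of the 9 genes is negative.

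Of 24 other genes of the clock network, 15 had a tested probe, with a median SD over the 9 animals of 0.11; 11 of the 15 exceeded the median of all tested probes. In limma 0 of the 15 were under an unadjusted p of 0.05 between the sexes, against 2.37% of all tested probes, and 0 across title numbers, against 9.56%, shares that leave few calls to a list of this size. Lower in males were 7 of 15, with a median difference of 0.03. Nampt, which makes an NAD+ precursor and is a clock output in mouse liver, had the largest SD, 0.33, and ranged from 7.47 in male 6 to 8.26 in male 4 (limma's adjusted p = 0.53 across title numbers). Noct (nocturnin, a rhythmic phosphatase; SD 0.20) had a mean of 8.85 ± 0.20 over the 3 females and 8.78 ± 0.22 over the 6 males (SD), Rorb, a RORE activator, 6.56 ± 0.14 and 6.50 ± 0.22, and Usp2, a deubiquitinase, 9.35 ± 0.17 and 9.45 ± 0.10. The probes of Clock, the partner of Bmal1, and Cipc, a repressor of CLOCK, were not above the olfactory stand-in on any array.

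For Per1, Nr1d1, Bmal1 and Dbp, the named genes with the most similar pattern over the 9 animals were listed by Pearson's r, and no pair passed after adjustment over all tested probes. With Per1, the highest r belonged to P2rx5 (0.92), Slc31a2 (0.92), Zc2hc1a (0.91), Dnai7 (0.91) and Arl2bp (0.90), and the lowest to Vom1r57 (-0.90), Timeless (-0.88) and Tada3 (-0.88). With Nr1d1, the highest belonged to Clk3 (0.92), RT1-CE15 (0.91), Stk32b (0.91), Doxl1 (0.91) and Pmch (0.90), and the lowest to Zc3h14 (-0.95), Mmp16 (-0.92) and Dhtkd1 (-0.91). Timeless, the mammalian relative of a fly clock gene, is the 1 clock gene among these. Its r with Per1 was -0.37 (exact permutation p = 0.41) without the 2 animals farthest from the median of Per1.

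With Bmal1, they were Pclaf (0.97), Gpr61 (0.95), Kif3b (0.95), Zhx2 (0.94) and Eps8l3 (0.93), and at the low end Unc119 (-0.91), Rcn3 (-0.89) and RT1-DMb (-0.89). With Dbp, they were Acsl1 (0.95), Lactb2 (0.94), Vamp3 (0.94), Gpx8 (0.93) and Uvssa (0.93), and Samd10 (-0.98), Ddx10 (-0.97) and Ash2l (-0.95). The lowest adjusted exact permutation p over all tested probes was 0.56 for Per1, 0.80 for Nr1d1, 0.10 for Bmal1 and 0.092 for Dbp. Among the genes listed for the 4 members, Zc2hc1a, Vom1r57, Stk32b, Doxl1, Pmch, Pclaf, Zhx2, Eps8l3, Uvssa and Samd10 were not above the olfactory stand-in on any array. Arl2bp was above it on 2 arrays, P2rx5 on 3, Slc31a2 on 4, RT1-CE15 on 5, and Clk3, Dhtkd1 and Timeless on 6. The other listed genes were above it on all 9.

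Glucocorticoid-responsive and immediate early genes, which share inducers with Per1 and Bhlhe40, were set beside the members as scores per animal. The glucocorticoid score (14 genes) was lowest in male 1 (-0.32) and highest in female 3 (0.18), and the immediate early score (21 genes) was lowest in male 1 (-0.22) and highest in female 1 (0.26). Of 18 relations between these 2 scores and the 9 members, the strongest was Bhlhe40 with the glucocorticoid score, at r of 0.82 (exact permutation p = 0.0097, adjusted over the 18 relations p = 0.17) and rho of 0.60 (exact p = 0.097). Without the 2 animals farthest from the median score, that r was 0.55 (exact p = 0.20). With the same score Per2 gave 0.70 (exact p = 0.038) and Per1 0.66 (exact p = 0.034), each with an adjusted p of 0.23. Without those 2 animals they gave 0.25 and 0.41. Per1 gave 0.65 with the immediate early score (exact p = 0.071), Bhlhe40 0.66 (exact p = 0.054) and Nr1d1 0.38 (exact p = 0.32). Without the 2 animals farthest from the median of that score these were 0.89, 0.23 and 0.84. Both lists also averaged lower in males, as most clock genes did: 12 of 14 glucocorticoid-responsive genes (median difference -0.11) and 20 of 21 immediate early genes (median difference -0.15), with 0 of each passing limma's adjusted test. Above the olfactory stand-in on all arrays were 10 of the 14 and 17 of the 21 genes. The part of these lists in the clock gene differences was not tested.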

How the data were processed

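Cortical RNA of 9 rats was measured on 1 array each. The authors deposited, per array, linear probe intensity values for 22517 probes; from their values, the arrays had not been brought to one scale. The authors also deposited a series table of log2 values for 15912 probes, which correlated at 0.99996 or above with the quantile-normalized log2 intensities and was used as an alternative. The sources used here name no scanner software or probe summary.

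Intensities were corrected with normexp (offset 50), log2-transformed and quantile-normalized in limma 3.58.1 (R 4.3.3). The 18531 probes above the 25th percentile of their array on at least 3 arrays were tested. Symbols came from the platform annotation (10687 of 22517 probes). For 10662 probes the gene identifier was found in RefSeq (assembly GRCr8), and the RefSeq symbol was used, whether or not it differed.

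Animals were grouped by labelled sex and numbered in record order. Tests were limma (male minus female; F test over title numbers with sex), with Benjamini-Hochberg adjustment across every probe tested, and exact permutation tests of correlations, computed with numba 0.67.0. The limma p-values set a difference against the spread between these animals, with variances moderated across probes. The correlation p-values come from reordering the animals. The number of animals limits the precision of both. The procedures were tested on simulated data. The members and lists were chosen with earlier results of these data known. Named genes were all members, other clock genes with the smallest p or largest SD, and the 5 highest and 3 lowest correlates of Per1, Nr1d1, Bmal1 and Dbp; Clock, and the pairs in the closing observations, were named after their values were seen. Alternatives were other background, normalization and filter settings, array weights, an intensity trend, title number as a block, the series table, rank correlation, and leaving out animals.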

Additional observations from a re-analysis of the deposited data

Results flagged for a closer look

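Noct, which encodes the rhythmic phosphatase nocturnin, stood apart from the other males in male 5. Its log2 intensity there was 9.22, and the other 5 males lay between 8.66 and 8.72, so that the gap to the nearest male was 0.89 of the whole male range, above Dixon's 95% critical value of 0.625. Female 1, at 9.07, lay near male 5, and females 2 and 3 were at 8.69 and 8.78. Of 14 clock genes looked at in this way, this was the 1 that stood apart. Chance gives about 1 in 20 for a gene not chosen by its spread, and Noct was among the 14 because of its large SD. Male 5 also had the lowest myelin score of the 9 animals (-1.01) and the brightest array; their part in the value was not tested.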

How the results depend on the processing

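No member passed the adjusted limma test between the sexes or across title numbers, at any of the 19 and 18 alternatives run. The correlation of Per1 with Nr1d1 kept its sign and an exact permutation p under 0.05 at all 19 alternatives (r 0.60 to 0.93; 0.77 to 0.86 when single animals were left out). That of Per2 with Bhlhe40 missed the threshold on residuals from the title number means (r = 0.76, permutation p = 0.056), without the 2 animals farthest from the median of Per2 (0.46), and without male 1; with single animals left out it ranged from 0.62 to 0.90. The count of 2 of 36 pairs was 6 without normalization, 4 over the 6 males, 4 with Spearman's rho, 4 without the 2 farthest animals, and 2 to 4 with single animals left out. Without normalization the share of all probes under that exact permutation p also changed. It ran from 2.76% for Bhlhe40 to 16.9% for Nfil3, where the main setting gave 3.86% and 7.29%. For the other counts in this list that share was not computed. Scaling to the 75th percentile put 1 pair, Per3 with Dbp (r = 0.86), under an adjusted p of 0.05 with either gene as the reference (2 results in place of 0); there, 45.1% of all probes were under an unadjusted exact permutation p of 0.05 with Cry1, 45.2% with Dbp and 43.5% with Per3, and 3277, 2336 and 3308 probes under an adjusted one, against 0 each with quantile normalization. Raising values under 64 to 64 put 4 probes under it with Cry1 and 39 with Dbp. Members under an unadjusted p of 0.05 between the sexes numbered 1 without normalization and 1 with 75th percentile scaling. Of the 18531 tested probes, 310 and 162 were under it there, against 439 at the main setting. With single animals left out the members numbered 1 to 4. They were 1 without female 1 (292 probes) or female 3 (426 probes) and 4 without male 6 (465 probes). Across title numbers the members numbered 2 with values under 64 raised to 64 (915 probes) and 3 without normalization (1120 probes), against 1772 probes at the main setting. With single animals left out they numbered 1 (without female 3, 1534 probes) to 6 (without male 2, 2218 probes). The sex difference turned for Per1 without male 1 (-0.24 to 0.030 with single animals left out) and for Nr1d1 without female 3 (-0.21 to 0.073) or the 3 dimmest arrays (0.0087); for the other 7 members the sign stayed at every alternative run. The causes were not tested. Per3 had no value in the setting that raises low values, where it lay at the floor on every array. No paired analysis was possible because no replicate number in the labels pairs a female with a male. Title number, as a block, gave 3 members under an unadjusted p of 0.05 between the sexes and 0 under an adjusted one. Of the 18531 tested probes, 575 were under the unadjusted p there and 0 under the adjusted one. Leaving out single animals moved the SD of Per1 (to 0.19 without male 1) and of Nfil3 (to 0.16 without female 3) by over 1.5 times, an alternative chosen after the data were seen. Signal over background limits what Per3 and Dbp can show.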

Other observations

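Among the other clock genes, Nampt tracked Dbp. Over the 9 animals r was 0.89 (exact permutation p = 0.0001) and rho 0.93 (exact p = 0.00075), and without the 2 animals farthest from the median of Dbp r was 0.90 (exact p = 0.0030). Nampt was at 8.23 to 8.26 on the 3 dimmest arrays and at 7.47 to 7.77 on the other 6, without overlap. The share of all tested probes that split in this way was not computed. Within the 6 brighter arrays r with Dbp was 0.88 (exact p = 0.021). Adjusted over all tested probes the pair did not pass (adjusted exact permutation p = 0.10). Of 135 relations between the 15 other clock genes and the 9 members, 10 were under an unadjusted exact permutation p of 0.05, which is 7.41%, near the background of 7.67%.

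Nfil3 and Cipc ran opposite to each other (r = -0.97, exact permutation p = 3.3e-05; rho = -0.93, exact p = 0.00075; adjusted over all tested probes p = 0.25). The Cipc probe lay between 5.81 and 6.0, not above the olfactory stand-in on any array. Without the 2 animals farthest from the median of Nfil3, r was -0.87 (exact p = 0.0016).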
